A study of Homo sapiens with 6 samples.

Results

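The genes within 3 Mb of MIR100HG on chromosome 11 were examined in MDA-MB-231 cells with and without knockdown of this lncRNA. MIR100HG lies on the minus strand at chr11:121899035-122427429 (GRCh37), and its neighbours were taken as all genes of the count table that lie wholly inside a fixed window around it, MIR100HG itself left out. This gave 82 of the 27745 genes in the table, and they span chr11:119019722-125366213. Of these, 27 lie below MIR100HG (at smaller coordinates, downstream of its 3′ end), 53 lie above it (at larger coordinates, upstream of its start) and 2 overlap it. By the annotation, 70 are protein-coding genes and 8 are lncRNA genes, and 4 have no match there. The rule uses positions only, but it was chosen with earlier results of these data known.

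MDA-MB-231 is an established triple-negative breast cancer (TNBC) cell line, and all 6 samples are cells of this line infected with a pLKO.1 lentivirus that expresses an shRNA. The control cells received sh-TRC, and the knockdown cells received either sh-MIR100HG-1 or sh-MIR100HG-2, with 2 biological replicates per group. The samples are called CTR1 and CTR2 (control), KD1-1 and KD1-2 (sh-MIR100HG-1) and KD2-1 and KD2-2 (sh-MIR100HG-2). The RNA is the total RNA of a whole culture, in which a smaller share of cells that express a gene and a lower level per cell cannot be told apart. Total counts ranged from 43804736 to 64588388 per sample. The neighbours together received between 0.318% and 0.394% of each library. Of the markers of the line, VIM (1607 to 2095 CPM, the counts scaled by library size) and EGFR (403 to 507 CPM) were abundant in all samples, whereas ESR1 stayed between 0.12 and 2.79 CPM, CDH1 between 1.499 and 7.05 CPM, EPCAM between 4.37 and 13.0 CPM, and the leucocyte marker PTPRC between 0.12 and 0.69 CPM. ERBB2, the HER2 receptor, was at 71.6 to 116 CPM in all samples, although triple-negative cells are defined by low HER2 protein.

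A lncRNA locus can affect genes close to it on the same chromosome, through the RNA, through its transcription or through regulatory DNA inside the locus, and such effects are called effects in cis. MIR100HG is in addition the host gene of the microRNA cluster of miR-100, let-7a and miR-125b. An shRNA acts on RNA that has already been transcribed, so it leaves the DNA of the locus in place. The comparison therefore asked whether neighbours were at other levels once the MIR100HG RNA was reduced, and whether the difference depended on the distance from the locus. Among the neighbours, the study also measured BLID, UBASH3B and SORL1 by qPCR. It reported no change of these genes in MDA-MB-231 and in BT549, another TNBC line. Its text names ectopic expression of MIR100HG for this result, whereas the figure legend names downregulation.

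The target sequences of both shRNAs are shown because they fix where in the neighbourhood the RNA was attacked. Each is a run of 21 bases found on the minus strand of GRCh37.
sh-MIR100HG-1: ttcctctgtttgtacttaaat
sh-MIR100HG-2: gagagtgacctacagaataaa
The first lies at chr11:121962132-121962152 and the second at chr11:121961961-121961981. Both fall in the same exon of MIR100HG, the block chr11:121959811-121962448, which is the 11th of its exon blocks counted from the low end. The sh-MIR100HG-1 target lies 457.7 kb past the end of SORL1 and 564.2 kb before the start of UBASH3B, the nearest tested genes outside the locus on either side. Neither full target occurs in an annotated transcript of another gene, and the 78 neighbours in the annotation were among the genes searched.

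The promoters of these flanking genes are shown from the RefSeq table (GRCh38.p14, 300 bases each, ending 50 bases into the gene), because the study examined MIR100HG as an RNA that joins DNA in triplexes, which form at runs of purines on one DNA strand. Capitals mark uninterrupted runs of at least 10 purines or 10 pyrimidines.
SORL1, chr11:121452064-121452363, plus strand: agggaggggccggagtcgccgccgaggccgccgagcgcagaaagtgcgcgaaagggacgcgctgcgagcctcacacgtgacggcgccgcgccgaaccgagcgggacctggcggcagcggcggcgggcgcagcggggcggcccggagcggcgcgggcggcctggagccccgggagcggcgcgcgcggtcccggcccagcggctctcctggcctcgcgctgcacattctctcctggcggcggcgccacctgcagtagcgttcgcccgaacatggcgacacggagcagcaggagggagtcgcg
UBASH3B, chr11:122655472-122655771, plus strand: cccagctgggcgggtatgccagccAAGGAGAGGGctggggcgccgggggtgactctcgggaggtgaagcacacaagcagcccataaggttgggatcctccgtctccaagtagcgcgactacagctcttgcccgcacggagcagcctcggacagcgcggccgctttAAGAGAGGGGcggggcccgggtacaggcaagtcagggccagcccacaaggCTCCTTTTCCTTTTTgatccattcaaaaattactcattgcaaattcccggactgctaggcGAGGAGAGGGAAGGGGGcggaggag
The SORL1 window has a GC content of 78% and 0 such runs, its longest being 9 bases. The UBASH3B window has a GC content of 62.3% and 4 runs, the longest of 17 bases. A run of at least 15 was present in 8 of the 25 tested neighbours with a promoter in the table (32%), against 19.65% of the promoters of all tested genes. The 8 include SIAE and SPA17, whose windows share 264 bases. Their run of 15 is the same stretch of DNA counted under both genes, which raises the share of the neighbours. A purine run on one strand is a pyrimidine run on the other, so both strands are covered, and a run is a feature of the letters only.

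MIR100HG itself was first compared as the check of the knockdown. Its level was 41.8 CPM in CTR1 and 58.5 CPM in CTR2, against 15.2 CPM (KD1-1), 13.2 CPM (KD1-2), 16.6 CPM (KD2-1) and 10.4 CPM (KD2-2). All 4 knockdown samples lay below both controls, at 27.5% of the control mean. The log2 fold change (log2FC) of the mean of both shRNAs against control was -1.86 (SE 0.249), with an adjusted p of 0.381 by edgeR's quasi-likelihood test, the second smallest p of the 15372 genes tested. No gene reached an adjusted p of 0.05 or lower in that test (0% of the genes tested, for either shRNA, for both together and for the difference between them), so the neighbours are described below by unadjusted p as well. The log2FC was -1.82 under sh-MIR100HG-1 alone and -1.90 under sh-MIR100HG-2 alone, and the difference between them had a 95% interval from -0.76 to 0.62.

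Of the 82 neighbours, 41 had enough counts to be tested, and all of these are protein-coding. The chaperone HSPA8, the constitutive member of the heat shock 70 family, was by far the most abundant, at 303 CPM per kilobase of exon in control cells, and it alone made up between 36.6% and 51.7% of the counts of the neighbourhood. It was followed by ESAM, an adhesion molecule of cell junctions, at 63.9 CPM per kilobase, RNF26, a ubiquitin ligase of the endoplasmic reticulum, at 55.9, SLC37A2, a sugar phosphate exchanger, at 41.8, and NRGN, a calmodulin-binding protein best known from neurons, at 38.0. MIR100HG stood at 4.56 on the same scale. In the control samples 28 tested neighbours had at least 1 CPM per kilobase, and 5 were below 1 CPM in the mean. The neighbourhood therefore holds abundant and barely detected genes side by side, as the plot of control levels along the chromosome shows.

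**Figure D1:**
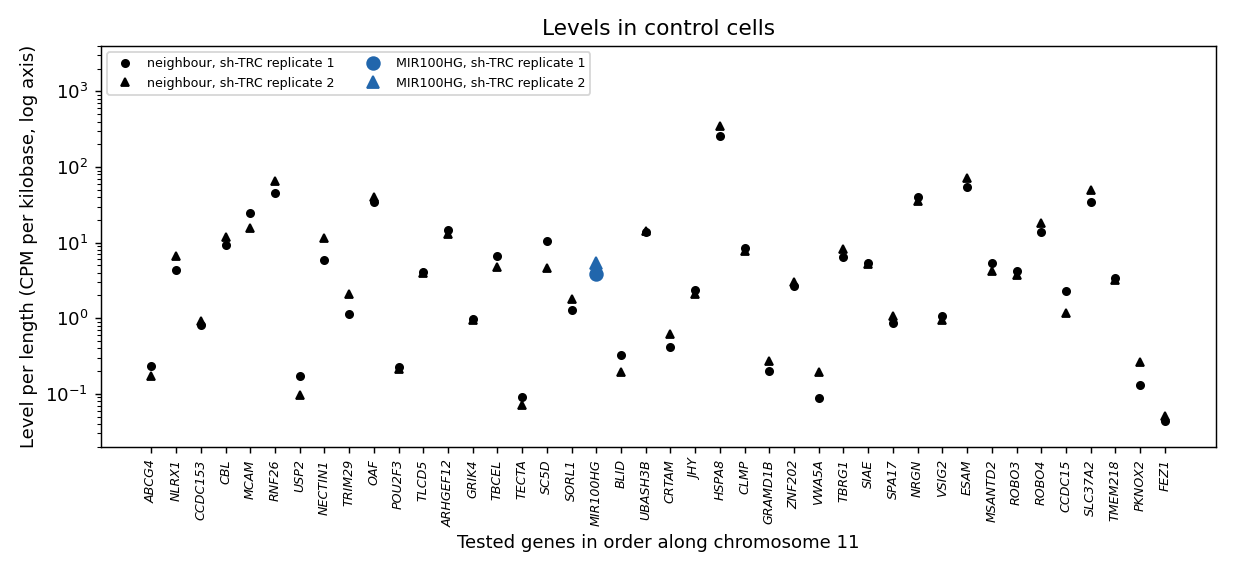
Level per length in the 2 control samples (CPM per kilobase of exon, log axis) of the 41 tested neighbours and MIR100HG, in the order of their starts along chromosome 11; circles are sh-TRC replicate 1 and triangles replicate 2. HSPA8 stands highest at 303 CPM per kilobase in the mean, and FEZ1 lowest at 0.0477.

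No neighbour differed between knockdown and control at an adjusted p of 0.05 or lower (0 of 41), and the smallest adjusted p among them was 0.524. The likelihood ratio test of edgeR and DESeq2 also called 0 neighbours at that threshold. At an unadjusted p below 0.05, edgeR's quasi-likelihood test called 6 of 41 (14.6%), against 7.68% of all genes tested. All 6 were lower in the knockdown (14.6% against 4.44% of all genes), and none was higher (against 3.23%). They were CCDC153, SORL1, SIAE, ROBO3, MCAM and VWA5A. The likelihood ratio test called 8 neighbours by this rule (8.52% of all genes) and DESeq2 5 (8.72%), but the count was 0 without CTR2 (5.04%) and 2 without KD1-2 (4.41%). Leaving out a control leaves a single control sample, which is then assumed to vary like the other groups.

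SORL1, a sorting receptor of the low-density lipoprotein receptor family, is the nearest tested gene below MIR100HG, with its end 394.6 kb away (chr11:121322912-121504402, plus strand). Its level was 24.6 CPM in CTR1 and 34.7 in CTR2, against 21.3 CPM (KD1-1), 19.7 CPM (KD1-2), 17.7 CPM (KD2-1) and 20.8 CPM (KD2-2). All 4 knockdown samples lay below both controls, but the controls were farther from each other than CTR1 was from any knockdown sample. The mean in the knockdown was 67.0% of control, with a log2FC of -0.58 (SE 0.219, 95% interval -1.08 to -0.08, adjusted p = 0.615 by edgeR's quasi-likelihood test). The exact permutation test over the samples gave p = 0.0667 (two-sided), the smallest that 4 against 2 samples can reach. With sh-MIR100HG-1 alone the log2FC was -0.53, and sh-MIR100HG-2 alone gave -0.62. Without CTR2 it was -0.31.

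UBASH3B, a phosphatase that acts on tyrosine kinases and on the ubiquitin ligase CBL, starts 98.95 kb above MIR100HG (chr11:122526383-122685181, plus strand) and was not distinguishable from control. It was present at 123 CPM in CTR1 and 129 in CTR2, and at 126 CPM (KD1-1), 127 CPM (KD1-2), 111 CPM (KD2-1) and 147 CPM (KD2-2). The knockdown samples lay on both sides of the controls, and both extremes belonged to sh-MIR100HG-2. The log2FC was 0.02 with a 95% interval from -0.41 to 0.45, an interval that leaves out a change to 67.0% of control, the value of SORL1. CBL, its substrate, lies in the same window 2714.4 kb below MIR100HG and had a log2FC of 0.11 (SE 0.191).

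BLID, a small protein with a BH3-like motif that induces cell death, lies inside the MIR100HG locus (chr11:121986062-121986923, minus strand). It received 15 and 10 counts in the controls and 12, 6, 7 and 5 in the knockdown samples, or 0.28 and 0.17 CPM against 0.18, 0.14, 0.15 and 0.10. KD1-1 lay between the controls and the other 3 knockdown samples lay below both. The log2FC was -0.63 (SE 0.594), with a 95% interval from -1.99 to 0.73, so at this depth neither a large loss nor a moderate increase could be set apart from no change. It was -0.24 without CTR1 and -0.95 without CTR2. Of its 862 exon bases, 83 are shared with MIR100HG exons on the same strand, so a read from there cannot be given to one gene with certainty.

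The remaining tested genes within 500 kb are CRTAM and JHY, both above MIR100HG. CRTAM, an immunoglobulin-like receptor of cytotoxic T cells and NK cells, had 1.12 and 1.65 CPM in the controls and 0.71, 0.40, 1.15 and 0.52 CPM in the knockdown samples. KD2-1 lay between the controls, and the log2FC was -1.02 (SE 0.496, adjusted p = 0.676 by edgeR). JHY, a gene needed for motile cilia of the brain, had 11.002 and 9.91 CPM in the controls and 12.5, 12.1, 11.2 and 8.71 CPM in the knockdown samples, with a log2FC of 0.08. Of the 4 genes that do not overlap MIR100HG but lie within 500 kb, 2 were thus higher and 2 lower in the mean.

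The other genes with an unadjusted p below 0.05 lie between 1.5 and 3 Mb from MIR100HG, farther away than SORL1. CCDC153, a coiled-coil protein, had the smallest p of all tested neighbours although it lies 2831.6 kb below the locus. Its level was 2.09 and 2.36 CPM in the controls and 0.979, 1.086, 0.7275 and 0.999 CPM in the knockdown samples. The groups were well separated, as the lowest control was nearly double the highest knockdown sample. The mean was 42.6% of control, with a log2FC of -1.23 (SE 0.373, adjusted p = 0.524 by edgeR's quasi-likelihood test). It shares 586 exon bases with NHERF4 on the opposite strand, and the strandedness of the counting is not stated, although NHERF4 itself had too few counts to be tested.

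MCAM (CD146), a surface adhesion molecule, lies 2706.8 kb below MIR100HG. Its levels were 182 and 116 CPM in the controls, 127 and 34.9 CPM with sh-MIR100HG-1, and 69.4 and 21.8 CPM with sh-MIR100HG-2. The groups overlapped, since KD1-1 was higher than CTR2, and replicates of the same shRNA were more than 3-fold apart. The log2FC was -1.29 (SE 0.537, adjusted p = 0.642 by edgeR). The log2FC was -0.93 without CTR1, and -0.97 without KD1-2. MCAM shares 509 exon bases with CBL on the opposite strand.

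SIAE, an esterase that removes acetyl groups from sialic acids, lies 2075.6 kb above MIR100HG. It had 43.25 and 42.70 CPM in the controls, which were almost identical, and 33.4, 22.65, 30.3 and 14.4 CPM in the knockdown samples. All 4 were lower, with the second replicate the lower one for each shRNA, and the log2FC was -0.78 (SE 0.305, adjusted p = 0.627 by edgeR). By the RefSeq promoters used here SIAE starts head to head with SPA17, a sperm surface protein, and 264 bases of their windows are shared. In the count table, however, SIAE reaches to 124565603, inside SPA17 (chr11:124543694-124567414, GRCh37). The window therefore need not cover every start of SIAE. The SIAE window is shown as the one that holds these RefSeq starts of both genes (GRCh38.p14, capitals as above).
SIAE, chr11:124673690-124673989, minus strand: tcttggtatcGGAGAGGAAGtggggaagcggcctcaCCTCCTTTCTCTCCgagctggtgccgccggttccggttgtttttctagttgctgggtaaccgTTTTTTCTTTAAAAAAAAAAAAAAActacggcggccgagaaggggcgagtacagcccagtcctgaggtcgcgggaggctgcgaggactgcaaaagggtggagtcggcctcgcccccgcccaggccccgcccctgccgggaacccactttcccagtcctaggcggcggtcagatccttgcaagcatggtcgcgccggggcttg
SPA17 had 4.56 and 5.64 CPM in the controls and 3.51, 3.05, 5.09 and 1.90 CPM in the knockdown samples, where KD2-1 lay between the controls. Its log2FC was -0.59 (SE 0.406, adjusted p = 0.77 by edgeR). SIAE shares 2286 exon bases with TBRG1 and 561 with SPA17, both on the opposite strand, and TBRG1 had a log2FC of -0.25 (SE 0.224).

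ROBO3, an axon guidance receptor, lies 2307.9 kb above MIR100HG and had 29.9 and 26.1 CPM in the controls against 23.9, 18.2, 19.3 and 16.1 CPM in the knockdown samples. All 4 were below both controls, with a log2FC of -0.54 (SE 0.215, adjusted p = 0.637 by edgeR). Its neighbour ROBO4, a receptor of the same family best known from endothelium, had a log2FC of -0.45 (SE 0.327), and KD2-1 was its highest sample of all at 145 CPM. VWA5A, a protein with a von Willebrand factor A domain, was the scarcest of the 6 at 0.56 and 1.26 CPM in the controls and 0.48, 0.52, 0.26 and 0.36 CPM in the knockdown samples. Its controls differed by more than CTR1 differed from any sh-MIR100HG-1 sample, and its log2FC was -1.20 (SE 0.502, adjusted p = 0.642 by edgeR), or -0.50 without CTR2.

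**Figure D2:**
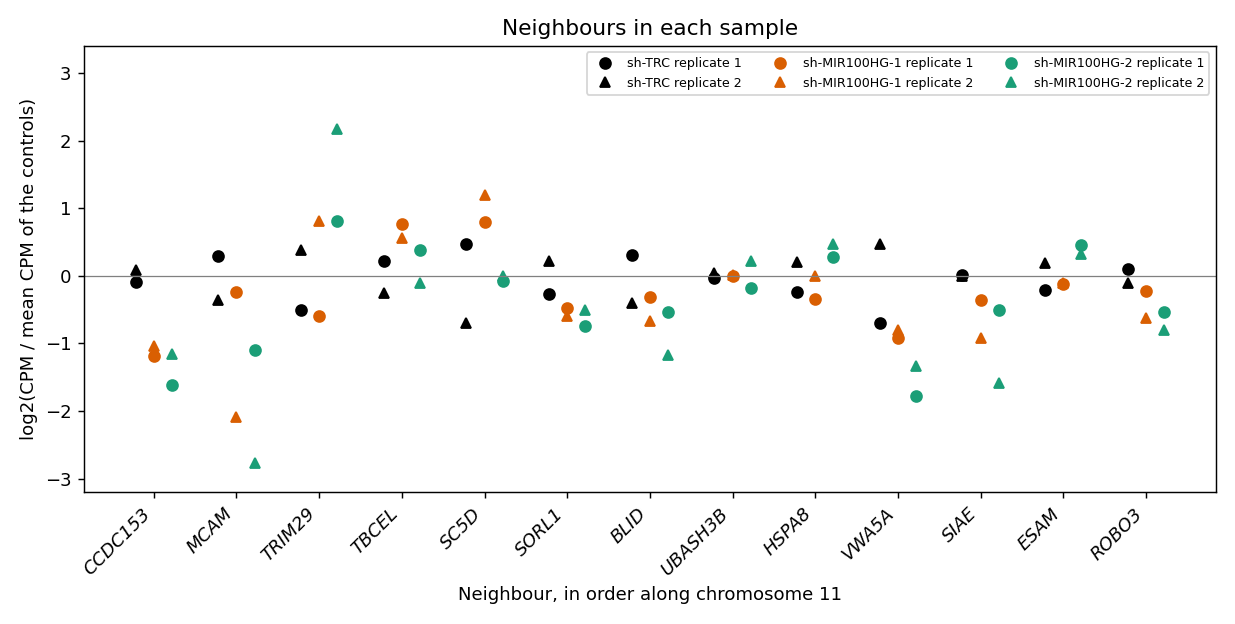
Log2 of the CPM over the mean CPM of the controls in the 6 samples. The neighbours measured by qPCR in the study and those with an unadjusted p below 0.05 in a comparison are shown. Each point is 1 sample, with the 3 groups side by side. SORL1 and CCDC153 show all 4 knockdown samples below both controls, whereas UBASH3B overlaps completely.

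By order of the samples alone, 8 of the 41 tested neighbours had all 4 knockdown samples below both controls (19.5%, against 9.08% of all genes tested), and 0 had them all above (against 8.4%). The 8 were CCDC153, SORL1, VWA5A, SIAE and ROBO3 together with TECTA, TMEM218 and FEZ1. TECTA, a protein of the tectorial membrane of the inner ear, had 37 and 32 counts in the controls and 31, 1, 10 and 6 in the knockdown samples. FEZ1, an adaptor of kinesin transport in neurons, had 14 and 18 counts against 8, 8, 1 and 7. Both are too scarce for a narrow estimate, with log2FC of -1.55 (SE 0.80) and -1.32 (SE 0.687). TMEM218, a protein of the cilium, was better covered at 18.7 and 17.6 CPM against 16.2, 16.4, 12.6 and 14.7, a small difference with a log2FC of -0.28 (SE 0.206).

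Across all 41 tested neighbours, 27 had a negative log2FC and 14 a positive one, with a median of -0.21, against -0.04 over all genes tested and -0.06 over the 831 tested genes on the rest of chromosome 11. The median was -0.19 with the size factors of edgeR's RLE method and -0.28 with upper quartile normalization, and -0.12 without CTR2. Within 0.5 of 0 on the log2 scale were 26 of the 41 neighbours, against 12055 of the 15372 genes tested, which is a larger share. For 19 of the 41 neighbours the 95% interval left out both a halving and a doubling. In 21 of the 41 the 2 controls differed from each other by more than the knockdown differed from control, and the median absolute log2 ratio between the controls (0.37) exceeded the median absolute log2FC of the knockdown (0.31). For all genes tested the same pair was 0.32 and 0.23, but the counts of 19 and 21 were not made over all genes. A ratio of 2 single samples also varies more than a difference of group means. The count of 21 is therefore not shown to be a trait of the neighbours. No neighbour had a log2FC as large in size as that of MIR100HG. In single samples, the median of the neighbours relative to the control mean was -0.19 (KD1-1), -0.35 (KD1-2), -0.10 (KD2-1) and -0.13 (KD2-2), and -0.04 and 0.04 in the controls. All 4 knockdown samples were therefore below the controls in the median, by an amount that was largest in KD1-2, while the median of all genes lay between -0.07 and 0.02. Its lowest value, -0.07, was in KD2-2. All these values share the same control mean, so they are not independent. The values of the 2 controls mirror each other by construction and do not measure their spread.

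The change was then set against distance from the nearer end of MIR100HG. Over the 41 tested neighbours the Spearman rho between log2FC and distance was -0.14 and the Pearson r was -0.09, and for the size of the change regardless of sign rho was 0.07. Over the 35 neighbours with a mean of at least 50 counts the rho of the log2FC was -0.34, and without the low-count filter it was -0.25. Neighbours share libraries and some share exons, so these values describe the points only. The medians followed no steady order with distance. BLID, which overlaps the locus, was at -0.63, the median was -0.28 for the 4 genes up to 500 kb away, -0.18 for the 6 genes between 500 kb and 1 Mb, 0.05 for the 8 genes between 1 and 2 Mb and -0.28 for the 22 genes beyond 2 Mb. Of the latter, 17 had a negative log2FC and 4 of them an unadjusted p below 0.05, where 54.4% of all genes tested were negative and 4.44% were lower with such a p. With BLID and all genes up to 1 Mb away joined in 1 class of 11, the median was -0.47. How the nearest genes rank therefore depends on the bins. In single samples rho was -0.07 (KD1-1), -0.14 (KD1-2), -0.25 (KD2-1) and 0.02 (KD2-2), so its sign was not shared by all samples.

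**Figure D3:**
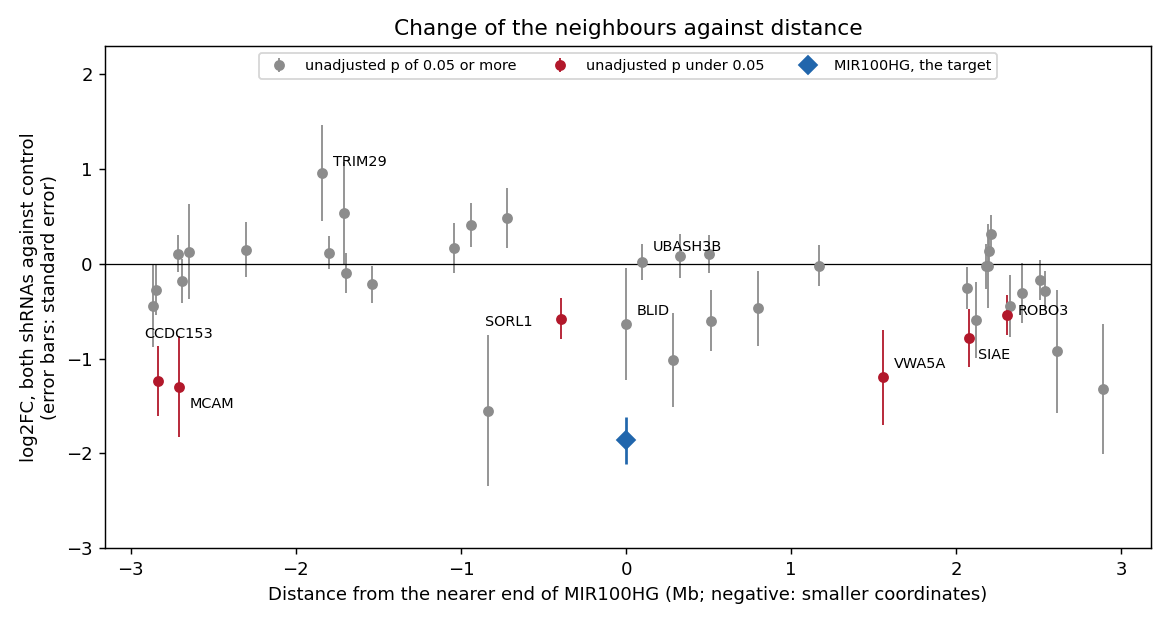
Log2FC of the mean of both shRNAs against control (bars, standard error) of the 41 tested neighbours, by distance from the nearer end of MIR100HG in Mb. Genes below the locus have negative distances and genes above it positive ones. The median over all points is -0.21, and MIR100HG itself is at -1.86.

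The sides of the locus did not look alike in the median. The 18 tested genes below MIR100HG, 9 higher and 9 lower, had a median log2FC of 0.01, and the 22 genes above it, 5 higher and 17 lower, had a median of -0.29. With each shRNA alone the median was again lower above MIR100HG than below it, but it was negative on both sides. With sh-MIR100HG-1 alone most genes were lower on both sides, 14 below (median -0.13) and 16 above (-0.28). With sh-MIR100HG-2 alone 10 were lower below (-0.05) and 16 above (-0.19). Each side held 3 of the genes with an unadjusted p below 0.05. Genes next to each other were of the same sign in 26 of the 40 adjacent pairs. The count was 22 with sh-MIR100HG-1 alone, 24 with sh-MIR100HG-2 alone and 14 for the difference between them. Since 27 of the 41 neighbours were negative, many pairs would share a sign in any order, so the count of 26 does not show clustering. On the rest of chromosome 11 the median was -0.10 for the 93 tested genes between 3 and 10 Mb away, -0.06 for the 80 between 10 and 30 Mb, -0.05 for the 306 between 30 and 60 Mb and -0.06 for the 352 beyond 60 Mb. For both shRNAs together, the interquartile range left out 0 for the genes above MIR100HG (-0.60 to -0.02) and for the neighbours between 2 and 3 Mb (-0.58 to -0.03). It included 0 for the genes below and for the other distance classes of the chromosome. With sh-MIR100HG-1 alone the range of the genes below left out 0 too (-0.44 to -0.01). The same held for the neighbours between 1 and 2 Mb (-0.16 to -0.03). With sh-MIR100HG-2 alone the range of the genes above included 0 (-0.64 to 0.002), while that of the neighbours between 2 and 3 Mb left it out (-0.64 to -0.09).

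**Figure D4:**
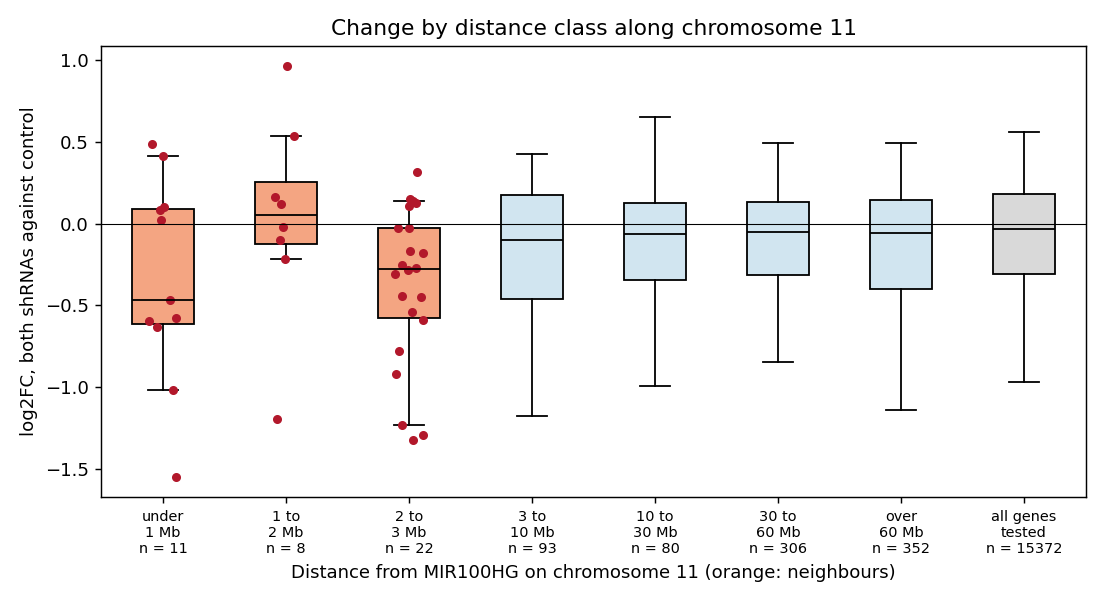
Log2FC of the knockdown against control of all tested genes of chromosome 11 by distance from MIR100HG, with all genes tested at the right; boxes span the quartiles around the median, and whiskers the 5th to the 95th percentile. The median is -0.47 for the 11 neighbours under 1 Mb, 0.05 for the 8 between 1 and 2 Mb and -0.28 for the 22 between 2 and 3 Mb, against -0.04 for all genes.

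By function, 10 of the neighbours encode adhesion and immunoglobulin-like surface proteins. Of these 8 were tested, 6 were lower and 2 higher in the mean, and the median log2FC was -0.49, with 2 (MCAM and ROBO3) at an unadjusted p below 0.05. Of all genes tested, 54.4% were lower and 7.68% had such a p. CLMP, an adhesion molecule of epithelial junctions, had 43.1 and 39.9 CPM in the controls and 28.5, 21.4, 42.3 and 17.9 CPM in the knockdown samples, with KD2-1 between the controls and a log2FC of -0.60 (SE 0.322). NECTIN1, a nectin of adherens junctions, and ESAM were the 2 on the higher side, at 0.15 and 0.14, and VSIG2 was at -0.03. All 5 genes of the ubiquitin system were tested, and none of them had an unadjusted p below 0.05. CBL, UBASH3B, the deubiquitinase USP2 (0.13) and TRIM29 (0.96) were on the higher side and RNF26 (-0.18) on the lower.

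The 4 genes of sterol and lipid handling had a median log2FC of -0.46, with 3 lower and 1 higher, and SORL1 was the only one with an unadjusted p below 0.05. GRAMD1B, a carrier of cholesterol between membranes, was at -0.47 (SE 0.397), and ABCG4, a sterol exporter, at -0.44 (SE 0.435). SC5D, an enzyme of the last steps of cholesterol synthesis, was at 0.48 (SE 0.318). Of 6 transcription regulators in the window 5 were tested, with a median of -0.02 and none at an unadjusted p below 0.05. They ranged from PKNOX2, a homeodomain protein, at -0.92 (SE 0.65), to POU2F3, the regulator of tuft cells, at 0.53 (SE 0.545), and ZNF202 was at -0.02 (SE 0.217). Of 5 channels and transporters 3 were tested, with a median of -0.17, and SLC37A2, the most abundant, was at -0.17 (SE 0.211). HSPA8 had 1250 and 1692 CPM in the controls and 1155, 1465, 1777 and 2034 CPM in the knockdown samples, with overlapping groups and a log2FC of 0.10 (SE 0.202).

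The shRNAs were then taken one by one. These comparisons share the control samples, so they are not independent of each other. With sh-MIR100HG-1, 3 of 41 neighbours (7.32%) had an unadjusted p below 0.05 by edgeR's quasi-likelihood test, against 6.87% of all genes. CCDC153 was lower (-1.11), and TBCEL (0.66) and SC5D (1.01) were higher. The smallest adjusted p was 0.714, and the median log2FC of the neighbours was -0.20, with 31 of 41 negative. Over all genes tested the median was -0.004, with 7733 of 15372 negative. TBCEL, a protein that takes tubulin apart, and SC5D lie below MIR100HG at 937.55 and 719.63 kb. TBCEL had 46.3 and 33.5 CPM in the controls, 67.8 and 58.5 CPM with sh-MIR100HG-1 and 51.9 and 37.2 CPM with sh-MIR100HG-2. SC5D had 58.3 and 25.8 CPM in the controls, 73.2 and 96.7 CPM with sh-MIR100HG-1 and 39.7 and 41.9 CPM with sh-MIR100HG-2. Both genes were above both controls in both sh-MIR100HG-1 samples, but the SC5D controls were themselves more than 2-fold apart. Without CTR2 the log2FC was 0.54 for SC5D, and without CTR1 it was 1.72. The count of 3 was 0 without CTR2 or without KD1-2 (1.99% and 2.82% of all genes), and 7 without KD2-1 and 8 without KD2-2 (7.63% and 7.6%).

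With sh-MIR100HG-2, 7 of 41 (17.1%) had an unadjusted p below 0.05, against 8.86% of all genes. Of these 6 were lower (14.6%, against 5.15%), namely CCDC153 (-1.36), MCAM (-1.71), SORL1 (-0.62), VWA5A (-1.53), SIAE (-0.94) and ROBO3 (-0.66), and 1 was higher (2.44%, against 3.71%). The higher one was TRIM29, a tripartite motif protein of stratified epithelia, which lies 1842.8 kb below MIR100HG. It had 11.5 and 21.3 CPM in the controls, 10.8 and 28.9 CPM with sh-MIR100HG-1 and 28.7 and 74.2 CPM with sh-MIR100HG-2. Both sh-MIR100HG-2 samples were above both controls, yet KD1-2 reached the level of KD2-1, and KD2-2 alone stood far above the rest. Its log2FC was 1.65 (SE 0.575, adjusted p = 0.517 by edgeR), and 0.80 without KD2-2. The smallest adjusted p among the neighbours was 0.508, and their median log2FC was -0.15, against -0.04 over all genes tested. The count of 7 was 3 without CTR1 and 2 without KD2-2 (4.01% and 6.15% of all genes). Without KD2-1 the log2FC was -2.77 for MCAM and -1.58 for SIAE, and without KD2-2 it was -1.11 for MCAM and -0.51 for SIAE. Without CTR2 it was -0.36 for SORL1 and -0.83 for VWA5A.

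The direct comparison of sh-MIR100HG-2 with sh-MIR100HG-1 uses no control sample, and MIR100HG did not differ in it beyond its error. Here 4 of 41 neighbours (9.76%) had an unadjusted p below 0.05, against 9.45% of all genes, and the smallest adjusted p was 0.509. SC5D was lower with sh-MIR100HG-2 (log2FC -1.06, 95% interval -1.89 to -0.23), and TRIM29 (1.38, 0.07 to 2.68), HSPA8 (0.54, 0.01 to 1.08) and ESAM (0.51, 0.01 to 1.004) were higher. ESAM had 161 and 212 CPM in the controls, 172 and 173 CPM with sh-MIR100HG-1 and 256 and 233 CPM with sh-MIR100HG-2. For HSPA8 both sh-MIR100HG-2 samples were above both sh-MIR100HG-1 samples, and the same held for ESAM. The median over the neighbours was 0.03, with 21 higher and 20 lower. The difference was near 0 for SORL1 (-0.09, -0.68 to 0.50) and for UBASH3B (0.03, -0.47 to 0.53), though the intervals leave room for a moderate difference in either direction. The count of 4 was 1 without KD1-1 and 7 without KD2-1 (6.36% and 12.2% of all genes), and the TRIM29 difference was 0.83 without KD1-1 and 0.53 without KD2-2.

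The other 41 neighbours were not tested for want of counts. Of these, 31 had 0 counts in all 6 samples, and the remaining 10 reached at most 8 counts in a sample. They include the cluster of olfactory receptors above MIR100HG, odorant sensors of the nasal epithelium. All 19 annotated members of it fell under the filter, with 16 at 0 counts in every sample, and 8 counts were summed over all of them. The other untested members include the sodium channel subunit SCN3B, the homeobox gene BSX, the glial adhesion protein HEPACAM, the surface glycoprotein THY1 and all lncRNAs of the window, among them the unnamed gene ENSG00000255015 inside the MIR100HG locus. Whether these genes differed was not detectable at this depth.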

How the data were processed

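The authors sequenced total RNA of MDA-MB-231 cells infected with sh-TRC, sh-MIR100HG-1 or sh-MIR100HG-2 lentivirus (2 replicates each; groups from the sample labels). The authors deposited raw counts per gene without normalization, with exon positions and lengths. They had mapped reads to GRCh37 with STAR (version 2.5.2a in the submitters' processing notes) and the lifted GENCODE annotation, and counted exon reads per gene with FeatureCounts. Strandedness and the handling of multi-mapped reads are not given in the sources used here. The column of gene lengths served only to express levels per kilobase of exon, and 0 other columns were left unassigned.

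The low-count filter of the study removed 12373 genes, those below 5 counts in 3 or more samples, and 15372 were tested. TMM normalization and the quasi-likelihood fit of edgeR 4.0.16 in R 4.3.3 were used in a single model of 3 groups, with 3 residual and 5.37 prior degrees of freedom, and Benjamini-Hochberg adjustment ran over all tested genes. The common biological coefficient of variation was 27.8%. The script was tested on simulated data. SE was taken from the log2FC and the F statistic, and 95% intervals from a t distribution with 8.37 degrees of freedom. CPM values are scaled by TMM, and values of single samples use log2 CPM with a prior count of 2. The log2 ratio of the controls uses a pseudocount of 0.1 CPM.

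Biotypes came from a GENCODE annotation lifted to GRCh37, and symbols from a separate list of gene names. The annotation matched 78 of the 82 neighbours by identifier, of which 18 had the same bounds as in the count table. Positions and strands are those of the count table. RefSeq promoters (GRCh38.p14) matched 25 of the 41 tested neighbours by symbol. For the 6 neighbours with more than 1 promoter, the first listed was used. The neighbours and lists were chosen with earlier results of these data known. Genes named are MIR100HG, the genes measured by qPCR, tested genes overlapping or within 500 kb, those with an unadjusted p below 0.05 in any comparison, the 5 with the highest level per length and genes of the function lists. ABCG4 and SORL1 count under several. TECTA, TMEM218 and FEZ1 were named for the order of their samples, and SPA17 for its overlap with SIAE, after their values were seen. HINFP, one of the listed transcription regulators, lies outside the window. The endothelial marker PECAM1 was not analysed here.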

Additional observations from a re-analysis of the deposited data

How the results depend on the processing

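With 2 samples per group, the error of single neighbours is wide, and no setting but the removal of the low-count filter called a neighbour at an adjusted p of 0.05 or lower. Without that filter edgeR called 2 neighbours for the knockdown (MCAM, log2FC -1.29, adjusted p = 1.085e-05; TRIM29, 0.96, 0.0276), 1 for sh-MIR100HG-1 (SC5D, 1.01, 0.0414), 2 for sh-MIR100HG-2 (MCAM, -1.70, 6.704e-07; TRIM29, 1.66, 1.231e-05) and 2 between the shRNAs (TRIM29, 1.401, 4.229e-04; SC5D, -1.04, 0.0134). The cause was not tested.

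Over all genes, calls at the adjusted threshold for the knockdown, sh-MIR100HG-1, sh-MIR100HG-2 and the difference were 392, 227, 517 and 679 without the filter, 109, 34, 121 and 91 by the likelihood ratio test, and 129, 65, 165 and 103 by DESeq2. With only the 2 groups compared in the fit, 7 genes were called between the shRNAs. Leaving out single samples gave 0 to 0, 0 to 3, 0 to 4 and 0 to 7. MIR100HG passed the adjusted threshold without the filter (-1.86, 2.77e-10), by the likelihood ratio test (-1.86, 1.21e-06) and by DESeq2 (-1.84, 5.204e-07).

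Counts of neighbours at an unadjusted p below 0.05 were 9 for sh-MIR100HG-1 and 11 between the shRNAs without the filter, when 51 neighbours were tested (17.6% and 21.6%, against 7.69% and 11% of all genes), 6 and 7 by DESeq2 (14.6% and 17.1%, against 8.35% and 10.8%), and 8 for sh-MIR100HG-1 with only the 2 groups compared (19.5%, against 7.6%). For the knockdown 0 neighbours had an unadjusted p below 0.01. Without single samples the counts were 0 to 9 for the knockdown, 0 to 8 for sh-MIR100HG-1, 2 to 9 for sh-MIR100HG-2 and 1 to 7 between the shRNAs. The median log2FC ranged over -0.28 to -0.12, -0.38 to -0.16, -0.18 to -0.13 and -0.075 to 0.20, and the Spearman correlation with distance over -0.21 to -0.08. That correlation was -0.25 without the filter and -0.34 over the 35 neighbours with a mean of at least 50 counts. Between 8 and 14 neighbours had all knockdown samples below the controls, and 0 to 3 above, when a sample was left out, but the share among all genes then rose as well (10.7% to 20.9% below, 9.84% to 19.1% above).

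UBASH3B reversed, from 0.02 to -0.044 with upper quartile normalization, to -0.015 without CTR1 and to -0.094 without KD2-2, and its leave-one-out range was -0.094 to 0.11. Of 313 values of named genes under alternatives, 301 kept their direction and side of the adjusted threshold.

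The replicate numbers were not taken to pair the samples, since no label ties them and not all group pairs correlated: the correlations of deviations from the group means were -0.21 (control with sh-MIR100HG-1), 0.01 (control with sh-MIR100HG-2) and 0.44 (between the shRNAs). With the replicate block 9 neighbours had an unadjusted p below 0.05 for the knockdown, 7 for sh-MIR100HG-1, 9 for sh-MIR100HG-2 and 8 between the shRNAs, against 10.3%, 9.24%, 11.9% and 13.1% of all genes in the same fit (22%, 17.1%, 22% and 19.5% of the neighbours). The count between the shRNAs, whose numbers do correlate, thus went from 4 to 8. With the block the log2FC was -1.55 for MCAM (adjusted p = 0.166), -0.56 for SORL1 (0.424) and -1.24 for CCDC153 (0.368). With the numbers of the controls crossed, a pairing chosen after seeing the data, the counts were 9, 8, 7 and 8, against 11%, 10.8%, 11.1% and 12.1% of all genes.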
